A study of Rattus norvegicus with 8 samples.

Results

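The control-only H3K4me3 regions are the stretches of rat aortic smooth muscle chromatin that were listed as carrying H3K4me3 in unstimulated cells and that touch no H3K4me3 region listed after angiotensin II (AngII). They were chosen by comparing the 2 deposited region lists: a control region was a member when it shared 0 bp with every AngII region. The rule selected 3441 of the 28168 control regions (12.2%, exact 95% interval 11.8 to 12.6). The other 24727 control regions overlapped an AngII region and are called shared here, and 3169 of the 27801 AngII regions touched no control region and are called AngII-only. Membership therefore rests on 1 library on each side, and presence or absence of a call is the selection itself and not a finding.

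The cells were vascular smooth muscle cells in primary culture, taken from thoracic aortas of Sprague-Dawley rats. The AngII group was serum-starved overnight and then given 0.1 uM AngII for 3 h, and the control group is labelled as having no treatment. Serum starvation is stated for the AngII group alone, so starvation and AngII cannot be told apart from these labels. Each condition had 1 library for RNA, 1 for H3K4me3 and 1 for H3K36me3, so differences carry no replicate check and no test was possible; intervals cover counting error only. In the RNA libraries the smooth muscle genes Tagln (5244 FPKM after AngII, 5103 FPKM in control), Cnn1 (315 FPKM after AngII, 228 FPKM in control) and Myh11 (84.7 FPKM after AngII, 96.5 FPKM in control) were abundant, whereas the intermediate filament gene Des stood at 0.557 FPKM after AngII and 0.734 FPKM in control. The 8 measured endothelial markers summed to 3.28 FPKM after AngII and 3.61 FPKM in control, the leukocyte markers reported here to 12.4 FPKM after AngII and 11.6 FPKM in control, and the 9 fibroblast markers to 283 FPKM after AngII and 324 FPKM in control. Of these markers 2 endothelial, 5 leukocyte and 1 fibroblast gene were at 0 in both libraries.

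H3K4me3, trimethylation of lysine 4 of histone H3, is laid down by SET1 and MLL family methyltransferases and removed by KDM5 demethylases. It is concentrated at the starts of active genes and at CpG-rich promoters, including those held ready but silent, and weaker stretches occur at enhancers and inside genes. H3K36me3, placed by SETD2 as RNA polymerase II elongates, covers the bodies of transcribed genes. AngII is the peptide hormone of the renin-angiotensin system that constricts arteries through the G-protein coupled AT1 receptor and drives growth responses of vascular smooth muscle.

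Promoter sequence is shown for 4 genes whose H3K4me3 within 1 kb of the locus consisted of a control-only region alone. Ubtd1 passed the CpG-rich cut of 55% GC and an observed to expected CpG ratio of 0.6, and the others did not. They are RefSeq sequences of the assembly GRCr8, from 250 bases before to 50 bases after the annotated start. The regions themselves are given in rn4 coordinates and their sequence is not shown. Capitals mark matches on either strand. The TATA box was searched as TATAAA and the GC box as GGGCGG. The core of the AP-1 site was searched as TGANTCA, beside the CCAAT motif. The CArG box, bound by serum response factor, was searched by its usual consensus. Among 27457 RefSeq promoters, counting 1 annotated start for each gene, 14.3% held the TATA box, 34.9% the GC box, 37.7% the CCAAT motif, 7.33% the AP-1 core and 1.64% a CArG box. Adjacent GC boxes can overlap, and a match describes letters only.
Ubtd1, chr1:250743633-250743932, plus strand: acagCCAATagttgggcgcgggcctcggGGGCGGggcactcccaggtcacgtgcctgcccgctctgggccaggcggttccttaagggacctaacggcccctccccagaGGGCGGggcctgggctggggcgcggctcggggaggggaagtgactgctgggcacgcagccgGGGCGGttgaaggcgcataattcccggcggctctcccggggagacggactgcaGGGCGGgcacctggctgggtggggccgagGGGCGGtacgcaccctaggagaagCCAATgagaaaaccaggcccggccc
Dhcr7, chr1:208444184-208444483, plus strand: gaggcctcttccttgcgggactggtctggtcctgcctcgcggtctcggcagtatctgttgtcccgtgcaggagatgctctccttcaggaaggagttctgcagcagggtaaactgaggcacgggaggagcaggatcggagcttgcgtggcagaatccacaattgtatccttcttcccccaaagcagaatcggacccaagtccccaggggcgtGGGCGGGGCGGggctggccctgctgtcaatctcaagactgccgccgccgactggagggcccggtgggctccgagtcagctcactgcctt
Actg2, chr4:117593990-117594289, minus strand: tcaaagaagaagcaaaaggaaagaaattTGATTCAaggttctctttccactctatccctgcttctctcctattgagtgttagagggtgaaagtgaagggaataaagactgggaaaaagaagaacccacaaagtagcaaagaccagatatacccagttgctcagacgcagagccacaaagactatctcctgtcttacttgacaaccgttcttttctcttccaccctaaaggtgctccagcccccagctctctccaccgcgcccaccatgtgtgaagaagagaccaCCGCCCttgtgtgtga
Ube2e2, chr15:9410817-9411116, plus strand: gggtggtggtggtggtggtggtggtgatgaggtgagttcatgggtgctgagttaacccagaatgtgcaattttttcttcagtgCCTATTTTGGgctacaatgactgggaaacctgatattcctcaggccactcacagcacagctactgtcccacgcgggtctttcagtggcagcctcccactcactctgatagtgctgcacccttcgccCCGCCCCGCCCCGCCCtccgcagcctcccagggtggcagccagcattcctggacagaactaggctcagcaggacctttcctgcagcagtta
The promoter of Ubtd1, a ubiquitin domain protein, had 72.3% GC, 25 CpG dinucleotides, 5 GC boxes and 2 CCAAT matches. That of Dhcr7, the last enzyme of cholesterol synthesis, had 63.0% GC, 17 CpG dinucleotides and 2 overlapping GC boxes. Its CpG ratio of 0.573 was just under the cut and above the median of 0.417 over all 27457 promoters. The window printed for Actg2, smooth muscle gamma-actin, had 47.0% GC, 5 CpG dinucleotides and 1 GC box. It also had an AP-1 core that matches on both strands. The GC box match of Actg2 lies after an ATG that opens a reading frame to the end of the window. Whether this window holds the start of Actg2 transcription was not tested, so these values describe the printed letters only. The promoter of Ube2e2, a ubiquitin-conjugating enzyme, is the first of its listed starts. It had 57.7% GC, 7 CpG dinucleotides, 3 GC boxes and a CArG box that matches on both strands. Only 89 of 122 genes of this kind (73.0%) had a promoter entry, too few for a comparison of promoter CpG content between groups of genes, which is therefore void.

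The control-only regions were short and ranked low in the control list. Each region is a whole number of bins, of 153 bp in the control list and 160 bp in the AngII list, and carries a score deposited by the authors that was used to rank regions within a list only. The median width was 765 bp for control-only regions (interquartile range 459 to 1071), 800 bp for AngII-only regions and 2142 bp for shared regions. A single bin made up 327 control-only regions (9.50%), against 11.96% of AngII-only and 2.16% of shared regions. At the other end, 22 control-only regions (0.639%) exceeded 10 kb, against 0.410% of AngII-only and 3.27% of shared regions. Because a short stretch has less room to touch a call of the other list, width is part of what the rule selects on. Control-only regions covered 3.68 Mb, 4.52% of the base pairs of the control list.

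**Figure D1:**
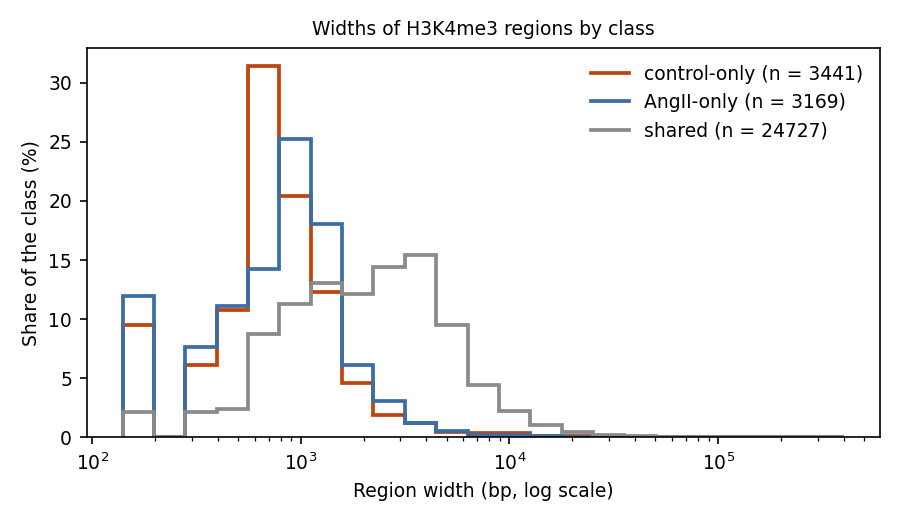
Share of each class (vertical axis, percent) by region width in bp (log scale) for control-only, AngII-only and shared H3K4me3 regions. Control-only and AngII-only regions both lie around medians of 765 and 800 bp with a separate group of 1-bin regions, and shared regions lie further right around 2142 bp.

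The share of control regions that were control-only was high at the bottom of the score order and low at the top. It was 39.3% in the lowest score decile, 33.1% in the second, 19.8% in the third and 12.1% in the fourth, and it was 6.64% and 7.60% in the next 2. In the upper 4 deciles it was 1.70%, 0.426%, 0.532% and 0.887%. The lowest score quartile held 2359 of the 3441 control-only regions (68.6%), and the highest quartile held 47 (1.37%). The 2 exclusive classes were alike in this respect, since 67.1% of AngII-only regions fell in the lowest quartile of the AngII list, against 18.9% of shared regions in the lowest quartile of the control list. The median score percentile was 16.1 for control-only, 16.7 for AngII-only and 55.5 for shared regions.

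**Figure D2:**
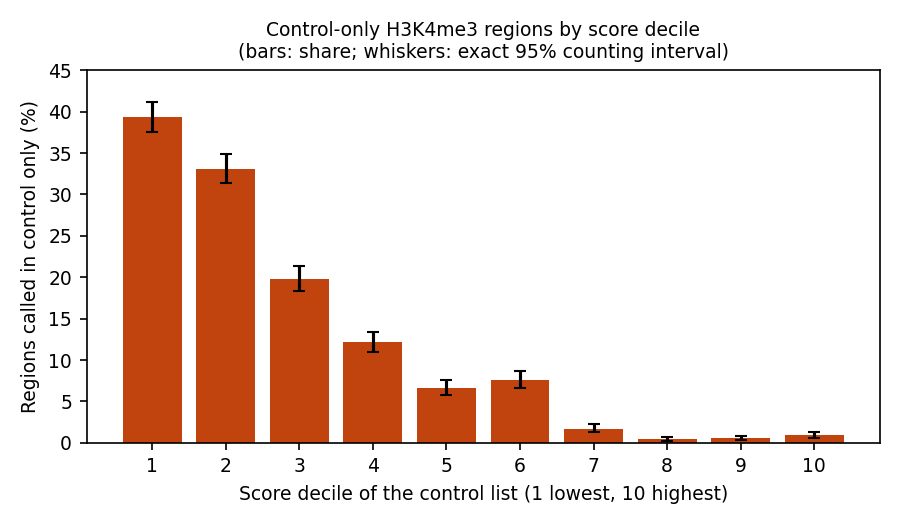
Share of control H3K4me3 regions called in control only (percent) in each score decile of the control list, from 1 (lowest) to 10 (highest), with exact 95% counting intervals. The share is 39.3% in the lowest decile and below 2% in the upper 4.

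Most control-only regions of high score were a single bin. Of the 47 in the top score quartile, 34 were 1 bin wide, whereas 175 of all 7042 control regions of that quartile were. The 10 with the highest score were each 153 bp. The first, chr1:9156535-9156687, ranked 2 in the whole control list and lay 124 kb from Hivep2, a zinc finger transcription factor gene. The next, chr8:93566431-93566583, ranked 9 and lay 24.7 kb from Nt5e, which encodes the ectonucleotidase CD73. Another, chr20:44515021-44515173, ranked 12 and lay 12.3 kb from the Mediator kinase gene Cdk19. A further region, chr13:10279448-10279600, ranked 32 and lay 691 kb from the cadherin gene Cdh20, which was at 0 FPKM in both libraries. The remaining 6 lay on chromosomes 1, 5, 7, 9 and 14, among them 1 inside an interval of Ugt2b glucuronosyltransferase genes and 1 at 47.2 kb from Ptdss1, a phosphatidylserine synthase gene. By width, the control-only share of control regions was 38.0% at 1 bin, 28.2% at 2 bins, 34.5% at 3 to 5 bins, 15.8% at 6 to 10 bins, 3.28% at 11 to 20 bins and 1.20% above that.

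Most of the widest control-only regions lay away from listed loci and in H3K36me3 regions. An exception in position was chr1:48426066-48446567 (20502 bp), inside an interval of 6 loci. The widest, chr20:36881650-36956007, spanned 74358 bp at 36.8 kb from Smpdl3a, a sphingomyelinase-like phosphodiesterase gene. The second, chr16:21292457-21360235, spanned 67779 bp and lay 547 kb from Ints10, which encodes an Integrator subunit. Others were chr20:38401931-38438956 and chr20:38228582-38254285, at 183 and 368 kb from Tspyl1, a nucleosome assembly protein-like gene, and chr9:61919714-61941745, 80.8 kb from the chemerin receptor gene Cmklr2. Of the 10 widest, all were under an H3K36me3 region after AngII and 9 were in control, and their score ranks ran between 17622 and 28122 of 28168. On chromosome 20 the control-only share was 16.0% (136 of 851 control regions), and on chromosome X it was 7.51% (58 of 772, interval 5.75 to 9.60); the other chromosomes lay between 11.04% and 15.8%. For AngII-only regions, 86 of 803 AngII regions on chromosome 20 and 78 of 797 on chromosome X were members.

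Gaps to the AngII list, which the rule used, are given as a description. The gap to the nearest AngII region had a median of 14.6 kb (interquartile range 5.66 to 36.6) for control-only regions, beside 15.6 kb between AngII-only regions and the control list. It exceeded 10 kb for 60.5% and 100 kb for 8.83%. Only 45 (1.31%) lay within 1 kb of an AngII region, and 8 (0.232%) within 160 bp, 1 bin of the AngII list. The median gap to the nearest shared region of the same control list was 16.8 kb, and 143 control-only regions (4.16%) lay within 2 kb of one. Just inside the rule, the smallest gaps were 27 bp at chr11:35696563-35697021 inside the ETS factor gene Erg and 32 bp at chr5:160462384-160463454 in an interval that holds the ephrin receptor gene Epha2. Just outside it, 5 shared regions were kept by overlaps of 25 to 30 bp, such as chr13:79197173-79197325 near Gorab with 25 bp. Of all shared regions, 921 (3.72%) were under 50% covered by the AngII list.

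Relative to genes, control-only regions lay mostly inside loci or far from them, and rarely at their ends. Positions were measured to the RNA loci that the authors' table ties to a transcript accession; strand is not given for these loci, so an end is either end. A region within 1 kb of a locus end was found for 201 control-only regions (5.84%, interval 5.08 to 6.68), against 5.14% of AngII-only and 39.4% of shared regions. Another 43.7% of control-only regions lay inside a locus and over 1 kb from its ends, against 48.3% of AngII-only and 31.7% of shared regions. Outside loci, 11.97% lay up to 10 kb from the nearest and 38.4% further, against 9.75% and 36.8% of AngII-only and 7.18% and 21.8% of shared regions. The median distance to the nearest such locus was 1.40 kb (interval 0.048 to 2.65) for control-only regions and 0 kb for both AngII-only and shared regions. Within 1 kb of a locus lay 49.6% of control-only, 53.5% of AngII-only and 71.1% of shared regions, and over 100 kb from any lay 11.97% of control-only, 12.4% of AngII-only and 5.63% of shared regions.

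**Figure D3:**
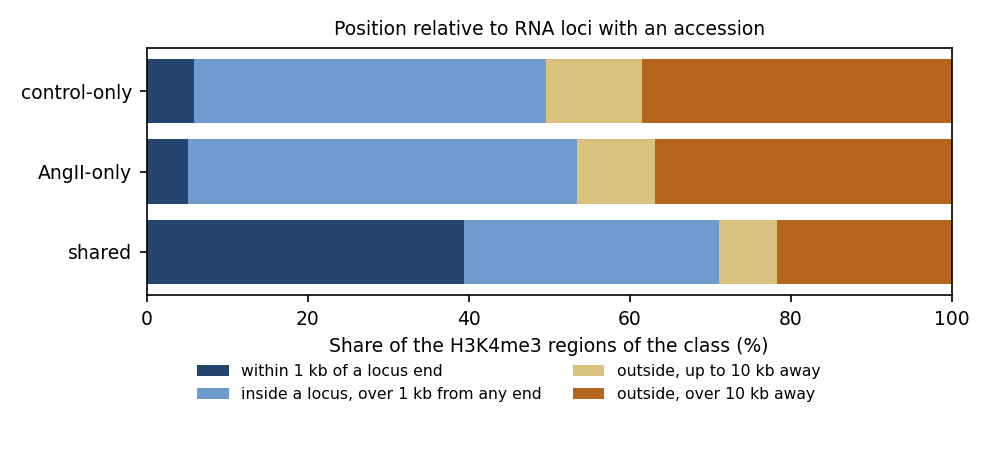
Stacked shares (percent) of control-only, AngII-only and shared H3K4me3 regions by position relative to the nearest RNA locus with an accession. The share within 1 kb of a locus end is 5.84% for control-only, 5.14% for AngII-only and 39.4% for shared regions.

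Some listed loci span several genes, so the shares at ends were also taken over regions that overlap a locus with coordinates of its own. There, 133 of 1117 control-only regions (11.9%), 10.6% of AngII-only regions and 67.7% of shared regions lay within 1 kb of an end. Width and score go with this difference. Among regions of 21 bins or more, 7.92% of control-only, 5.56% of AngII-only and 65.6% of shared regions were at an end; among those of 6 to 10 bins the shares were 7.45%, 3.87% and 14.3%; among those of 3 to 5 bins they were 4.48%, 5.35% and 8.55%. By score, the lowest quartile had 6.36% of control-only, 4.66% of AngII-only and 8.05% of shared regions at an end. In the highest quartile the shares were 21.3% (10 of 47), 33.3% (14 of 42) and 75.1%. Low-scoring and narrow shared regions thus also lay mostly away from ends, and the classes differed most among wide and high-scoring regions.

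**Figure D4:**
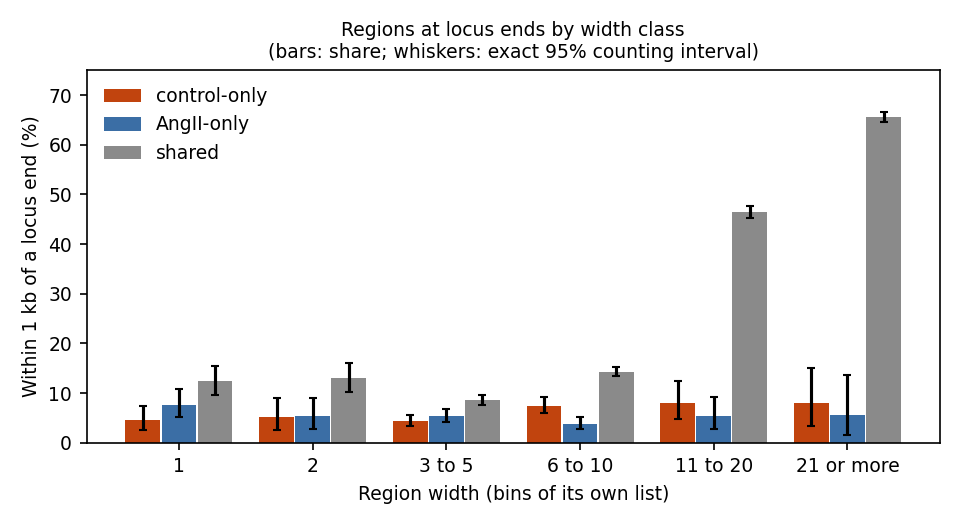
Share (percent) of control-only, AngII-only and shared H3K4me3 regions within 1 kb of a locus end, by width in bins, with exact 95% counting intervals. At 21 bins or more the shares are 7.92%, 5.56% and 65.6%; at 3 to 5 bins they are 4.48%, 5.35% and 8.55%.

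H3K36me3, which the rule did not use, covered somewhat fewer control-only than shared regions. An H3K36me3 region overlapped 52.6% of control-only regions after AngII (interval 50.9 to 54.3) and 44.6% in control (43.0 to 46.3). For AngII-only regions the shares were 56.7% after AngII and 49.7% in control, and for shared regions 62.9% after AngII and 56.6% in control. The AngII H3K36me3 list gave the higher share in each of the 3 classes. Of the control-only regions, 10.4% lay under H3K36me3 after AngII alone, 2.41% in control alone, 42.2% in both and 44.96% in neither. Wide regions were under H3K36me3 more often than single bins. The share was 85.1% after AngII and 84.2% in control for control-only regions of 21 bins or more, and 34.3% after AngII and 32.7% in control for those of 1 bin. At the same width the order of control-only and shared regions turned: among regions of 6 to 10 bins, 58.5% of control-only regions after AngII and 48.4% in control were under H3K36me3, against 45.1% after AngII and 35.9% in control for shared regions. At 3 to 5 bins it was 46.9% after AngII and 38.8% in control for control-only regions, against 40.8% after AngII and 34.4% in control for shared regions. At 21 bins or more the shared regions had 88.7% after AngII and 84.4% in control. AngII-only regions were higher still, with 66.0% after AngII and 56.4% in control at 6 to 10 bins, and 50.5% after AngII and 44.2% in control at 3 to 5 bins. The lower share of control-only than of shared regions over all widths thus stood beside a higher share in each width class from 2 to 20 bins.

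The genes nearest to control-only regions had RNA levels that were about the same in both libraries. Their medians were below those of genes nearest to AngII-only and to shared regions. For 2767 regions (80.4%) the nearest locus had coordinates of its own, and its RNA had a median of 4.27 FPKM after AngII and 4.97 FPKM in control. Nearest loci of AngII-only regions had medians of 5.91 FPKM after AngII and 6.01 FPKM in control, and those of shared regions 6.04 FPKM after AngII and 6.80 FPKM in control. A level of at least 1 FPKM was reached by 64.8% of the loci nearest to control-only regions after AngII and by 67.1% in control. For shared regions it was 71.0% after AngII and 72.9% in control. Control-only regions inside such a locus had medians of 5.30 FPKM after AngII and 6.004 FPKM in control, and those outside had 3.54 FPKM after AngII and 4.22 FPKM in control. RNA differences are given as log2((AngII FPKM + 1)/(control FPKM + 1)). The added 1 shrinks differences of weakly expressed loci. The median log2 ratio of expressed loci (at least 1 FPKM in 1 library) nearest to a region was -0.20 for control-only regions (1475 loci), -0.12 for AngII-only regions and -0.20 for shared regions.

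Genes with a control-only region within 1 kb of the locus differed between conditions about as often as genes in general. There were 3289 such loci with an accession, 1982 of them expressed, and 2984 also had a shared H3K4me3 region. Their median log2 ratio was -0.22, and over all 11703 expressed loci it was also -0.22, so the values lie below 0 for loci in general. At least 2-fold higher after AngII were 70 of the 1982 (3.53%), beside 3.48% of all expressed loci, and at least 2-fold lower were 56 (2.83%), beside 3.02%. With AngII values scaled to centre the ratios on 0, the counts were 103 higher and 21 lower for these genes and 594 higher and 168 lower for all. Many of these loci share 1 interval with several genes, so that a region in the interval is assigned to each of them. Restricted to loci with coordinates of their own and 1 gene symbol, 803 had a control-only region, 548 of them were expressed, and the median log2 ratio was -0.20, beside -0.22 for all 6887. In this stricter set 28 (5.11%, interval 3.42 to 7.30) were at least 2-fold higher, beside 4.04% of all, and 21 (3.83%, interval 2.39 to 5.80) at least 2-fold lower, beside 3.25%. Both shares of the stricter set are near the background. Most of these 803 loci (707) held 1 control-only region, 84 held 2, 9 held 3 and 3 held 4.

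Among loci with coordinates of their own, 18 of the 20 genes named for the largest RNA differences also had another H3K4me3 region. Ubtd1 and P2ry6, described further on, did not, and nor did 26 of all 548 such genes. The VEGF receptor gene Flt1 had 47.7 FPKM after AngII (deposited bounds 27.3 to 68.0) and 3.01 FPKM in control (1.63 to 4.38), a log2 ratio of 3.603. Its 2 control-only regions included chr12:7924963-7926339, 66.9 kb from the nearer end and 32.2 kb from any AngII region. The kinase-anchoring scaffold gene Akap12 had 92.9 FPKM after AngII and 8.08 FPKM in control, and Flnc, encoding the muscle filamin C, had 232 FPKM after AngII and 29.3 FPKM in control. The decoy receptor gene Tnfrsf11b (osteoprotegerin) had 495 FPKM after AngII and 124 FPKM in control, with a 306 bp control-only region 0.928 kb from its end. Others at the upper end were the START domain gene Stard13 (29.7 FPKM after AngII, 7.42 FPKM in control), the FK506-binding co-chaperone gene Fkbp5 (8.84 FPKM after AngII, 1.87 FPKM in control), the transcription factor gene Ets1 (119 FPKM after AngII, 38.9 FPKM in control), Ptprn (6.91 FPKM after AngII, 1.86 FPKM in control) and the E3 ligase gene Marchf3 (19.0 FPKM after AngII, 6.53 FPKM in control). In each of these the deposited bounds of the 2 libraries did not overlap. The values of Akap12, Flnc and Stard13 are each of 1 locus, where 3, 2 and 2 loci are listed under the symbol.

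At the lower end, 9 genes besides P2ry6 were named. Gdf6, a BMP family growth factor, had 36.1 FPKM after AngII (bounds 21 to 51.2) and 153 FPKM in control (88.2 to 218), a log2 ratio of -2.06. Its control-only region, chr5:23752279-23756103, spanned 3825 bp, lay 0.037 kb from a locus end and 0.541 kb from the nearest AngII region, and ranked 28159 of 28168 by score. Hey2, a transcriptional repressor induced by Notch, had 39.6 FPKM after AngII and 110 FPKM in control (log2 ratio -1.45). Smad6, an inhibitor of BMP signalling, had 5.42 FPKM after AngII and 16.3 FPKM in control (-1.43). The other genes named by the same rule were Mpped2 (2.79 FPKM after AngII, 9.65 FPKM in control), the TGF-beta-inducible repressor gene Klf11 (2.01 FPKM after AngII, 6.74 FPKM in control), Cln6 of the endoplasmic reticulum (6.05 FPKM after AngII, 16.8 FPKM in control), Ypel2 (3.602 FPKM after AngII, 10.6 FPKM in control), the mitochondrial protease gene Oma1 (0.780 FPKM after AngII, 3.45 FPKM in control) and Prorp, the mitochondrial RNase P nuclease gene (2.10 FPKM after AngII, 6.598 FPKM in control). These 9 genes also had a shared region and an AngII region within 1 kb of the locus.

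Without the limit to loci of their own, the same rule of size named further genes that share their interval with others. Among those higher after AngII were the nuclear receptor gene Nr4a1 (39.8 FPKM after AngII, 1.38 FPKM in control), the potassium channel gene Kcnn4, the endothelial proteoglycan gene Esm1, Pvr, Slc7a8, Tnfrsf12a and Mir143. Among those lower were Kctd7 (1.55 FPKM after AngII, 9.85 FPKM in control), the thromboxane receptor gene Tbxa2r (9.26 FPKM after AngII, 30.3 FPKM in control) and Mir3120. The bounds of Mir3120 overlapped (0 to 2.44 FPKM after AngII, 0.447 to 8.02 FPKM in control). Mir143 was at 0 FPKM in control, with wide bounds of 0.0947 to 9.18 FPKM after AngII. The most abundant RNAs with a control-only region within 1 kb of their interval were Rpph1, Actb, Rpl37a, Eef2, Col8a1, Nupr1, Rack1, Mfap4, Tubb5 and Pdlim1, with control levels between 573 and 15760 FPKM and log2 ratios between -0.43 and 0.31. Which gene of a shared interval the region belongs to cannot be told from the files.

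A smaller group of genes had a control-only region as their sole H3K4me3 call. These were 292 loci with a control-only region within 1 kb and neither a shared nor an AngII region within 1 kb. Only 63 (21.6%, interval 17.0 to 26.7) were expressed, and 65.8% after AngII and 63.0% in control were under 0.1 FPKM. With coordinates of their own and 1 symbol there were 122, of which 26 (21.3%, interval 14.4 to 29.6) were expressed. For comparison, 14.4% of loci with no H3K4me3 region and 75.2% of those with shared regions alone were expressed. H3K36me3 touched 48.4% of the 122 after AngII and 39.3% in control, against 34.6% after AngII and 33.1% in control for loci with no H3K4me3 region, and 84.4% after AngII and 80.0% in control for loci with shared regions alone. Median locus length was 13.9 kb for the 122, 3.07 kb with no H3K4me3 region and 17.9 kb with shared regions alone. These shares were not adjusted for length. Of the 26 expressed genes, 2 were at least 2-fold higher after AngII and 1 was at least 2-fold lower; the median log2 ratio was -0.22, equal to that of all loci.

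The gene of this group with the largest difference was Ubtd1, whose promoter is printed above. Its RNA stood at 71.6 FPKM after AngII (bounds 41.9 to 101) and 13.8 FPKM in control (7.55 to 20.03), a log2 ratio of 2.30. The control-only region, chr1:248816560-248817477 (918 bp, score rank 25661), lay 0.258 kb outside the listed locus at chr1:248817735-248820279, and the nearest AngII region was 7.502 kb away. The same region overlapped the end of the neighbouring gene Ankrd2, a muscle ankyrin repeat gene with 0.0817 FPKM after AngII and 0 FPKM in control, so it cannot be assigned to Ubtd1 alone. P2ry6 differed in the other direction. It is the UDP receptor gene and had 2.20 FPKM after AngII (1.05 to 3.35) and 12 FPKM in control (6.81 to 17.2), a log2 ratio of -2.02. Its region, chr1:158387315-158388691 (1377 bp, rank 27215), lay 6.19 kb inside the gene and 9.65 kb from the nearest AngII region. The other gene at least 2-fold higher was Anxa5, at a fragment of 3.11 FPKM after AngII and 0.602 FPKM in control that is 1 of 3 loci listed under that symbol; its region overlapped another of them.

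The smooth muscle gene Actg2 also belonged to this group. It had 138 FPKM after AngII (80.1 to 196) and 176 FPKM in control (101 to 250), so the bounds overlapped widely. Its control-only region, chr4:117745254-117745865, was 612 bp wide, ranked 14679, lay inside the gene 1.14 kb from an end, and was 7.30 kb from the nearest AngII region. Dhcr7 had 2.95 FPKM after AngII and 6.26 FPKM in control (log2 ratio -0.88), with a region 0.492 kb outside the locus. Ube2e2 had 12.3 FPKM after AngII and 13.8 FPKM in control, with a 306 bp region 0.733 kb inside an end. Gmfg, an actin debranching factor gene, had 7.96 FPKM after AngII and 11.98 FPKM in control, and its region overlapped a locus end. Mapre3, a microtubule plus-end protein gene, had 4.89 FPKM after AngII and 6.44 FPKM in control, and Bst1, an ADP-ribosyl cyclase gene, had 3.38 FPKM after AngII and 5.95 FPKM in control. For each of these 6 genes the deposited bounds of the 2 libraries overlapped.

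Among the remaining 4 of the 12 most abundant loci of this group, the origin of Rpl37a, Tbca and Rbpj is uncertain. No ground of this kind is given here for Setsip. Rpl37a, a ribosomal protein gene, had 1833 FPKM after AngII and 2186 FPKM in control at chr5:146450563-146450926. Tbca, a tubulin folding cofactor gene, had 73.9 FPKM after AngII and 89.9 FPKM in control at chr7:141657521-141658053. Setsip, related to the histone chaperone SET, had 90.4 FPKM after AngII and 90.3 FPKM in control at chr19:55797059-55798578. Rbpj, the DNA-binding partner of Notch, had 36.5 FPKM after AngII and 37.8 FPKM in control at chr5:4663782-4668189, where a 1-bin region of rank 933 overlapped the locus end. In RefSeq the genes Rpl37a, Tbca and Rbpj lie on chromosomes 9, 2 and 14 of GRCr8, not on the chromosomes of these loci, so the values may belong to copies that share reads with the genes. The sources used here do not say how the counting treated such copies. Of the 26 expressed loci, 4 lay on another chromosome than the RefSeq gene of their symbol, Rpl37a, Tbca and Rbpj among them. For 7 of the 26 the region lay within 1 kb of a further listed locus.

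**Figure D5:**
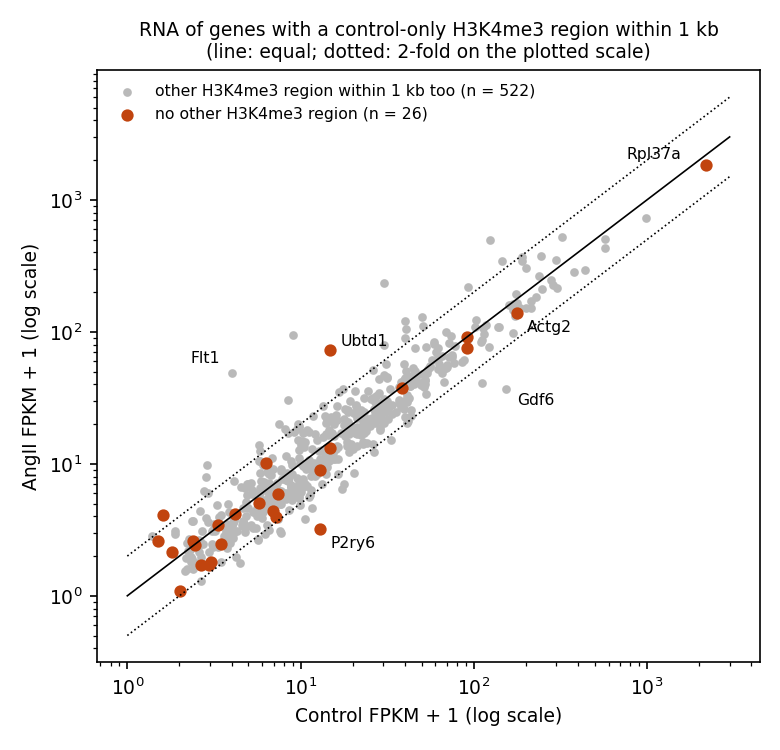
RNA after AngII (vertical, FPKM + 1, log scale) against control (horizontal, FPKM + 1, log scale) for 548 expressed genes with a control-only H3K4me3 region within 1 kb and a locus of their own; 26 with no other H3K4me3 region are in colour. The solid line marks equal values and the dotted lines a 2-fold ratio; Ubtd1 lies above and P2ry6 below the dotted lines, and 28 genes are at least 2-fold higher and 21 at least 2-fold lower.

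The other 96 of the 122 genes were under 1 FPKM in both libraries. Several of them, named after their values were seen, are known from other tissues. The intestinal homeobox gene Cdx2 had 0.0255 FPKM after AngII and 0 FPKM in control, with a region of 1836 bp 0.497 kb from the locus end. The growth factor gene Fgf3 and the pancreatic endocrine regulator gene Pax4 were at 0 FPKM in both libraries, with a region overlapping the locus end for Fgf3 and 0.616 kb from it for Pax4. The astrocyte filament gene Gfap had 0.0863 FPKM after AngII and 0.0125 FPKM in control. Agt, the gene of the AngII precursor angiotensinogen, had 0.0960 FPKM after AngII and 0.234 FPKM in control, with a 1-bin region 2.76 kb inside an end.

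By function, members of smooth muscle, matrix and signalling gene lists carried control-only regions, mostly in addition to shared ones. AngII-only regions were about as frequent in some of these lists. They lay within 1 kb of 4 contractile, 6 matrix, 4 immediate early, 2 TGF-beta and BMP and 0 AngII and G-protein signalling genes. As background, 2413 of 14767 gene symbols with a locus (16.3%) had a control-only region within 1 kb. Of symbols with a locus of their own, 6.89% had one. Loci with a control-only region were long, with a median of 350 kb against 24.4 kb for all loci with an accession. Among loci of their own and 1 symbol, the medians were 59.2 kb and 14.3 kb. The shares of the lists were not adjusted for locus length. Among smooth muscle contractile genes, 5 of 15 had a control-only region. They were Actg2, the smooth muscle myosin gene Myh11, the leiomodin gene Lmod1, the myosin light chain kinase gene Mylk and the transcriptional coactivator gene Myocd. Actg2 was the single gene of the list without another H3K4me3 region, and no gene of the list was 2-fold higher or lower with the pseudocount of 1. Myocd was at the border, with 18.3 FPKM after AngII and 8.81 FPKM in control, a log2 ratio of 0.97 that the pseudocount keeps below 1. Among extracellular matrix genes it was 5 of 17: the collagen genes Col8a1 and Col5a1, the fibrillin gene Fbn1 and the metalloproteinase inhibitor genes Timp3 and Timp1. Col8a1 had 730 FPKM after AngII and 987 FPKM in control, with a 459 bp region 46.5 kb inside the gene.

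In the TGF-beta and BMP list it was 6 of 23 genes, including Gdf6 and Smad6 above, the receptor genes Tgfbr2 (28.3 FPKM after AngII, 40.05 FPKM in control) and Tgfbr3 (0.792 FPKM after AngII, 0.580 FPKM in control), the signal transducer gene Smad3 and the inhibitor of differentiation gene Id3. Of these 6, 2 were 2-fold lower and none was 2-fold higher; over the whole list 5 were higher and 4 lower, around a median ratio of -0.01 (log2). In the immediate early list it was 5 of 26: Junb, Ier2, Ier3, Srf and Nr4a1. This list was high after AngII as a whole, with 18 of 26 genes at least 2-fold higher and a median log2 ratio of 1.89. All 5 lay in intervals shared with between 9 and 82 loci, so the regions cannot be placed on these genes. Of 17 AngII and G-protein signalling genes, Agt and the regulator of G-protein signalling gene Rgs3 (26.5 FPKM after AngII, 15.2 FPKM in control) carried one.

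Developmental transcription factor genes had a control-only region in 4 of 37 cases: Gata2, Gata3, Gata4 and Meox1. Each stood at or below 0.835 FPKM in both libraries, had a shared region as well, and had its control-only region between 2.16 and 2.99 kb from an AngII region. Neuronal genes had one in 5 of 22 cases, namely Ntrk3, Slc17a7, Syn1, Gad1 and Elavl3, all at or below 0.332 FPKM; Ntrk3 and Gad1 alone had a locus of their own. Of the enzymes and subunits that write or erase H3K4 methylation, 2 of 9 had one: the demethylase genes Kdm5b (43.6 FPKM after AngII, 39.6 FPKM in control) and Kdm1a (50.2 FPKM after AngII, 35.9 FPKM in control). None of the 9 differed by 2-fold, and their median log2 ratio was -0.12. They are those of 19 listed genes that had a locus, and no SET1 or MLL family methyltransferase gene is among them. Among marker genes of other cell types, a control-only region lay within 1 kb of 1 of 8 endothelial genes (Erg), 4 of 11 leukocyte genes (all in shared intervals) and 2 of 9 fibroblast genes (Pdgfra and Dpep1). Counting genes with a locus of their own, the numbers with a control-only region were 3 of 12 contractile, 3 of 14 matrix, 4 of 21 TGF-beta and BMP, 0 of 20 immediate early, 3 of 33 developmental, 2 of 18 neuronal and 1 of 8 H3K4 enzyme genes. The other assignments, Mylk, Myh11, Timp1, Timp3, Smad3, Id3, Gata2 and Kdm1a among them, rest on intervals of several loci, and 1 region can be counted for 2 lists, as for Id3 and Kdm1a.

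Few of the loci that the authors' table lists without an accession were touched by a control-only region. Of 10066 such loci, 160 at 64 intervals overlapped one, and 115 of these were expressed. At least 2-fold higher after AngII were 5 (4.35%), beside 7.37% of all 4951 expressed loci without an accession, and at least 2-fold lower were 13 (11.3%), beside 11.5%. The median ratio was -0.39 (log2), beside -0.32 for all. The 115 loci lay at 42 intervals. For 110 of the 160 an AngII region overlapped too. The most abundant was a locus at chr1:89339462-89339968 with 1405 FPKM after AngII and 1635 FPKM in control, whose 1-bin region lay 42 bp from an AngII region. Next came chr5:139578626-139579084 with 698 FPKM after AngII and 831 FPKM in control and chr10:106705887-106706394 with 627 FPKM after AngII and 756 FPKM in control, each overlapped by a control-only region and by no AngII region. These are loci of 458 to 507 bp, so they too may share reads with copies elsewhere. Of the control-only regions over 1 kb from any locus with an accession, 59 lay on a locus of this kind.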

How the data were processed

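The libraries of RNA, H3K4me3 and H3K36me3 numbered 6, with 1 per condition and assay, out of 8 samples; the 2 inputs were not analysed here. Groups follow the sample titles. The H3K4me3 and H3K36me3 lists hold regions and a score per region, as deposited by the authors. The submitters' processing notes name Bowtie and rn4, and the sources used here do not name the region caller. The AngII lists have bins of 160 bp (H3K4me3) and 548 bp (H3K36me3), and the control lists bins of 153 bp (H3K4me3) and 589 bp (H3K36me3). RNA levels are FPKM with lower and upper bounds as deposited by the authors; the submitters' processing notes name TopHat, Cufflinks and Cuffdiff and give no versions. Both RNA samples carry the same table, which holds both conditions. The read depth behind regions and FPKM is unknown from the sources used.

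Of 30937 loci, 30922 had a usable estimate, and 20856 of those had an accession. Of 20869 accession loci in all, 16252 were paired with symbols through a RefSeq table of GRCr8, used for names only. Acta2 and other genes without a paired locus were left out. A locus had coordinates of its own when no other locus shared its interval (15772 loci, 12595 of them with 1 symbol). Near means a gap of at most 1 kb. Expressed means at least 1 FPKM in at least 1 library. The pseudocount was 1. With 1 library per condition no test was run; shares have exact Clopper-Pearson 95% intervals and medians order-statistic intervals, both for counting error only. Regions and loci are not independent replicates.

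The named genes are the 10 highest-scoring and 10 widest regions, the 10 highest and lowest log2 ratios, the 10 highest control levels, the 12 most abundant genes with no other H3K4me3 region, up to 5 genes per list and the most abundant loci without an accession. The highest and lowest ratios were also taken over loci with coordinates of their own, and positions by width and score class; both were added after seeing the data. The members and gene lists were chosen with earlier results of these data known. Interval functions were tested on simulated data. Python 3.11.15, numpy 2.4.6, pandas 2.3.3, scipy 1.17.1 and matplotlib 3.10.9 were used. Files were given without the genome of the authors' build, so region sequence is not shown. Some genes that these rules select are not reported here.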

Additional observations from a re-analysis of the deposited data

How the results depend on the processing

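No paired analysis was possible because each condition had 1 library, and for the same reason no library could be left out. Of 76 recomputed values, 42 stayed within their counting interval or within 1.5 times a count and 34 moved. The median log2 ratio, the only measure that could change sign, stayed below 0 in each setting. It was also below 0 over all 11703 expressed loci (-0.22), so the sign is not particular to these genes. After centring, its interval of -0.028 to 0.015 included 0. The causes were not tested beyond what each setting removes by construction. With the top 50% of the score order only, 314 regions remained, with a median width of 153 bp, a median distance to a locus of 5.63 kb, 45.5% within 1 kb of a locus, 35.0% under H3K36me3 after AngII and 34.4% in control, 2.87% within 1 kb of an AngII region, 7.64% at a locus end and a median log2 ratio of -0.20. With members defined as under 50% covered by AngII regions, 63.8% were in the lowest score quartile, the median distance was 0.045 kb and 8.28% were at a locus end. Keeping regions of at least 2 bins gave 70.4% in the lowest quartile. With loci of their own coordinates only, the distance was 14.6 kb, 33.9% lay within 1 kb, the median log2 ratio was -0.20, and 28 genes were 2-fold higher and 21 lower. With all loci, with or without an accession, the distance was 0.004 kb and 52.0% lay within 1 kb. For RNA, a pseudocount of 0.1 gave a median of -0.25 and 128 lower; a pseudocount of 5 gave -0.15, 42 higher and 7 lower; no FPKM minimum gave -0.045; centring gave -0.0069 and 21 lower; an FPKM minimum of 5 gave 35 lower; bounds apart gave 32 lower. A 1.5-fold rule gave 160 higher and 331 lower, and genes with no other H3K4me3 region gave 2 higher and 2 lower. For the pseudocounts, the FPKM minimum and the 1.5-fold rule, shares over all expressed loci are not given here. Those counts therefore do not set genes with a control-only region apart from other genes. With bounds apart, 51 of these genes were higher, beside 287 higher and 197 lower of all 11703 expressed loci.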

Other observations

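Control-only regions were spread over the genome. Of 2486 windows of 1 Mb that held a control H3K4me3 region, 1508 held a control-only region, with a median of 2 in those, and 144 held 5 or more. The window with the most, on chromosome 19 from 24 to 25 Mb, held 13 among 45 control regions and 43 AngII regions, and 11 of the 13 lay under H3K36me3 in control; the immediate early genes Junb and Ier2 share the long interval that begins there. A window on chromosome 16 from 18 to 19 Mb held 11 among 46 control regions, with 3 of the 11 under H3K36me3 in control, and one on chromosome 7 from 11 to 12 Mb held 10 among 45. By the second score column of the region lists, 69.7% of control-only regions were in the lowest quartile, against 69.6% of AngII-only and 18.8% of shared regions.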
